A study of Mus musculus with 8 samples.

Results

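The cytosolic ribosomal protein genes were taken from the table of counts by symbol: Rpl or Rps followed by digits and at most a short suffix, together with Rplp0, Rplp1, Rplp2 and Rpsa, with pseudogene symbols ending in -ps left out. This gave 86 of 37310 genes. By symbol alone, 47 were assigned to the large subunit, 36 to the small subunit and 3 to the P stalk. The stalk is the arm of the large subunit that recruits elongation factors. The annotation calls 81 of the 86 protein-coding and 5 pseudogenes, and 9 carry a symbol of a paralogue (ending in l or l1). They lie on 19 chromosomes. Rpl24 and Rpl41 were not analysed here.

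Bulk RNA-seq of alveolar macrophages, which clear particles and surfactant from the air spaces of the lung, was made in 4 groups. The texAM were macrophages of C57BL/6 mice that had been expanded in culture, transplanted, and sorted 4 months later from whole lung as SiglecF+, CD11c+ and CD45.2+ cells. The exAM were C57BL/6 macrophages kept in culture for 2 months and not sorted, the tAM were transplanted C57BL/6 macrophages with no expansion named, sorted like texAM after 4 months in the lung, and the HostAM were the CD45.1+ resident macrophages of C57Bl/6-Ly5.1 mice. The mice used as donors and recipients were 8 weeks old and wild type. Each group had 2 libraries, each a pool of 3 mice per the labels. The labels name PBS and exAM as the material given to mice and do not say which of these the HostAM mice received. Pools labelled as replicates may share mice or a culture, so p-values measure the spread between these pools.

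Each ribosome needs a copy of nearly every ribosomal protein, and cells make the proteins of both subunits in step with the ribosomal RNA. In mammals the mRNAs of these genes begin with a terminal oligopyrimidine tract, a C followed by a run of C and T, through which the kinase complex mTORC1 and the RNA-binding protein Larp1 control their translation and stability. Ribosomal protein mRNAs are short and abundant. For these reasons the level of the mRNA is only part of the control of ribosome production, and the spread of reads over a short transcript matters for how its count is read.

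The start sites of 5 members that hold a pyrimidine run are shown as examples of the tract, which the choice by name did not use. They were picked among members called in at least 1 comparison below, and other called members (Rpl4, Rpl23, Rps15, Rps3, Rps3a1 and Rplp0) had no such run near their RefSeq start. Each line gives the strand of the mRNA from 10 bases before to 20 bases after the RefSeq start (GRCm38.p6), with the longest run of a C followed by at least 4 pyrimidines in capitals.
Rpl14 (chr9:120571507-120571536, plus strand): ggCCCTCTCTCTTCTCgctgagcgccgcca
Rpl15 (chr14:18270967-18270996, minus strand): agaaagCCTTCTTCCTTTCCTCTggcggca
Rpl28 (chr7:4792955-4792984, plus strand): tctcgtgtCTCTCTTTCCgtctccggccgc
Rpl38 (chr11:114668570-114668599, plus strand): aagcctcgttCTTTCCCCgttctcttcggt
Rps6 (chr4:86857348-86857377, minus strand): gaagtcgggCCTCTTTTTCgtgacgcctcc

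A start in RefSeq was found for 61 of the 86 members. A C followed by at least 5 pyrimidines, searched on the strand of the mRNA, lay within this 30-base window in 36 of the 61 (59.0%), against 24.9% of all 27025 genes of the same table. A C followed by at least 4 pyrimidines exactly at the start was present in 13 members (21.3%), against 3.01% of all genes. A match is a string of letters and was not tested as a working tract.

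Library totals ran from 6546272 to 9154128 counts, and both exAM libraries (6546272 and 7110439) were below the 6 lung libraries (7733568 to 9154128). The 19 alveolar macrophage markers were detected in all 4 groups. Their levels were summed in CPM (counts scaled to a common library size with TMM factors). The sum was 5148 to 5657 in texAM, 6606 to 7683 in exAM, 5807 to 6071 in tAM and 5479 to 5650.1 in HostAM. Single markers went both ways. Of the 19, 10 were called higher and 3 lower in exAM than in tAM (68.4%, beside 44.7% of all genes). Log2 changes were positive for 13 and negative for 6, and ran from -6.85 to 3.62. Per base of the longest transcript, 10 of the 19 had over 1 count and 13 over 0.5. The part of counts per base and of the scaling in the exAM sum was not tested. Of 6 red cell markers, 5 had no count in exAM, among them Hba-a1, Hba-a2, Hbb-b1 and Hbb-bt, and their summed level was 0.154 to 1.03 CPM in exAM against 81.0 to 198 CPM in the lung libraries. Of 19 lung epithelium markers, 10 had no count in exAM, among them Sftpc and Krt8, and the sum was 392 to 438 CPM in exAM against 575 to 924 CPM in the lung libraries. Most of the exAM sum was Cdh1, which ran the other way, with a mean of 399 CPM in exAM against 241 in texAM, 235 in tAM and 215 in HostAM. The 18 lymphocyte markers summed to 373 to 417 CPM in exAM, with 11 at 0, and to 254 to 556 CPM in the lung libraries. Here Il7r made up most of the exAM sum, with a mean of 344 CPM in exAM against 81.2 in texAM, 23.6 in tAM and 21.4 in HostAM. The 10 dendritic cell markers summed to 86.6 to 112 CPM in exAM, with 4 at 0, and to 175 to 304 CPM in the lung libraries, while the 12 endothelium and stroma markers (271 to 290.4 CPM in exAM and 248 to 335 CPM in the lung libraries) and the 14 proliferation markers (1363 to 1574 CPM in exAM and 1232 to 1451 CPM in the lung libraries) overlapped. This overlap is one of sums. Of 7 tested endothelium and stroma markers, 4 were called higher and 0 lower in exAM than in tAM (57.1%, beside 44.7% of all genes), with 5 positive and 2 negative log2 changes. Cdh5 had 167 and 115 counts in exAM and 0 in every lung library. The part of other cells in the results below was not tested, and in bulk samples fewer cells of a type and less RNA per cell cannot be told apart.

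The raw counts of many ribosomal protein genes differed little between libraries. Rpl4, which lines the exit tunnel of the large subunit, had 2133 and 2141 counts in texAM, 2098 and 2086 in exAM, 2135 and 2142 in tAM, and 2155 and 2109 in HostAM. Both exAM libraries were the lowest, by a small margin. Rps3a1, of the small subunit, had 489 and 494 counts in texAM, 480 and 492 in exAM, 488 and 486 in tAM, and 484 and 475 in HostAM, and the groups overlapped. Rps15, in the head of the small subunit, had 594 and 590 counts in texAM, 569 and 580 in exAM, 578 and 595 in tAM, and 593 and 581 in HostAM. Its counts, too, spanned a narrow range, and exAM replicate 1 was the lowest.

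Among the 77 members with a mean above 100 counts, the variance of the 8 counts divided by their mean had a median of 1.83, where pure counting error alone gives a value near 1. In 24 of the 77 (31.2%) it was below 1. Over all 9126 genes with a mean above 100 counts the median was 30.6, and 0.767% of genes were below 1. Had the members' counts followed the library totals and nothing else, their median would have been 5.91. The whole range of the 8 counts was under 20% of the mean in 40 of the 77 members and under 10% in 10, against 3.11% and 0.636% of all genes.

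**Figure D1:**
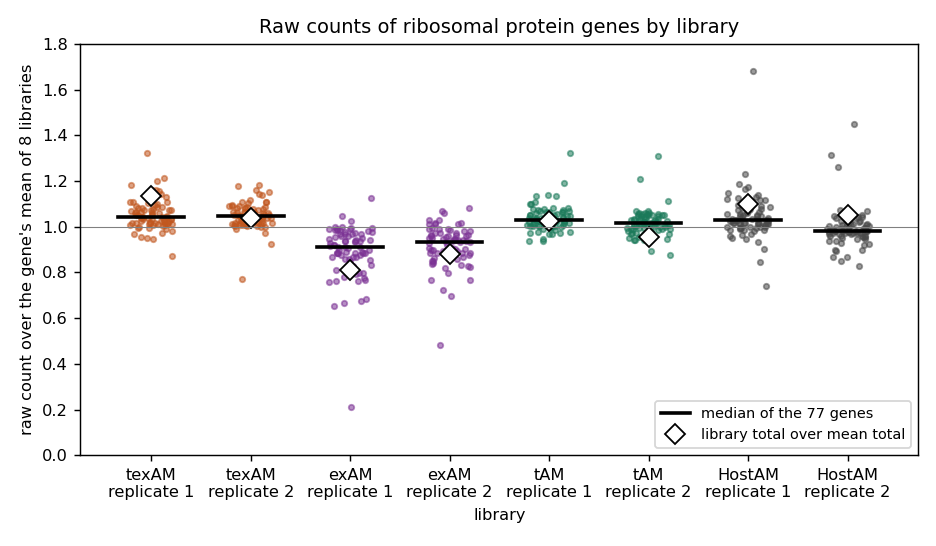
Raw count of each of the 77 members with a mean above 100, divided by its own mean over the 8 libraries (points, vertical axis), by library (horizontal axis). Black bars are medians and open diamonds the library total over the mean total; the medians stay between 0.912 and 1.05 while the totals run from 0.810 to 1.13.

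How counts grew with depth differed with the counts per base of transcript. In texAM, exAM and tAM the deeper library gained fewer counts in densely counted genes than in sparsely counted ones, and in HostAM fewer than in genes of middle density. In texAM, where the totals differed by 0.13 on the log2 scale, the median gain was 0.21 for genes under 0.05 counts per base and 0.03 for genes with 1 to 2 counts per base. In exAM the totals differed by 0.12, and the gain was 0.20 at 0.05 to 0.1 counts per base and -0.01 at 1 to 2. In tAM the gain was 0.17 in the sparsest and 0.03 in the densest genes, for totals that differed by 0.10. HostAM, with totals 0.06 apart, had gains of 0.00 in the sparsest, 0.10 in the middle and 0.02 in the densest genes. The members gained -0.01 in texAM, 0.04 in exAM, 0.02 in tAM and 0.06 in HostAM.

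**Figure D2:**
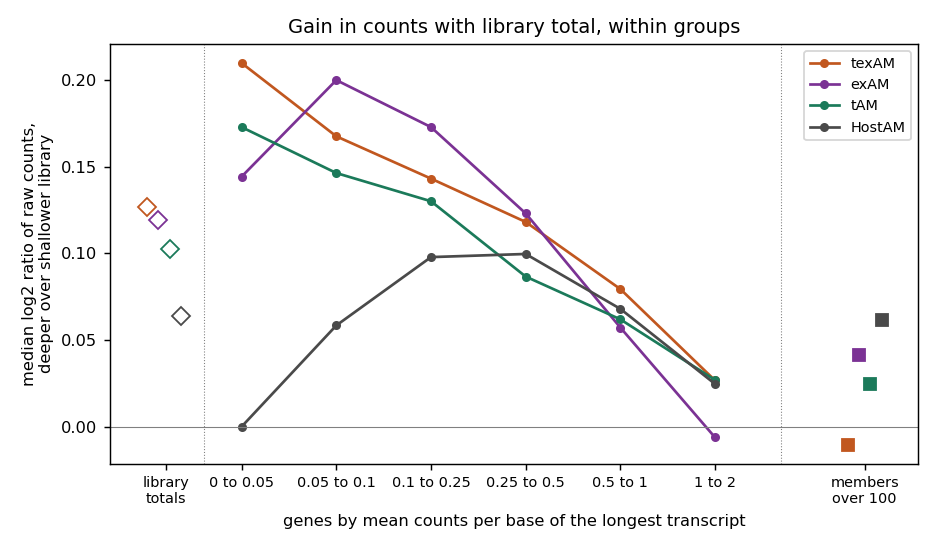
Median log2 ratio of raw counts of the deeper over the shallower library of each group (vertical axis) for genes grouped by mean counts per base of the longest transcript (horizontal axis). Open diamonds show the log2 ratio of the totals and squares the 77 members; the lines fall to between -0.01 and 0.03 in the densest genes.

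Among the genes found in the annotation (32620 of 37310), none reached 2 counts per base of the longest transcript: the highest was 1.90 as a mean and 1.94 in any library. Per base of the longest transcript, 20 members were over 0.5 counts per base and 4 over 1, and per base of the principal transcript these were 42 and 9. Among the members of highest mean counts per base of the longest transcript were Rpl4 (1.38), Rpl8 (1.14), Rps15 (1.02) and Rps21 (0.967). The highest value of any member in a library, per base of the principal transcript, was 1.83. Principal transcripts of the members had a median length of 790.5 bases and ran from 345 to 5130 bases. The counting rule for reads from the same position, the read length and the strand setting are not given in the sources used here, and their part in the limit was not tested.

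Many members also share sequence with transcripts annotated elsewhere in the genome. Of the 50-base windows in a member's principal transcript, a median of 52.2% occurred at another annotated locus. More than 50% of windows were shared in 46 members, and none in 3, Rpl3l and Rpl39l among them. The counts of members with shared windows are therefore uncertain wherever reads could be split or dropped. In the table, 142 rows had a symbol ending in -ps, 127 had a count and 26 had a mean above 10. Their sum was 1029 to 1355 counts per library, against 32419 to 38598 counts in the members. In addition, 38 members overlap another annotated gene.

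Together the members held 0.439% ± 0.0252 of all counts in texAM, 0.480% ± 0.0216 in exAM, 0.468% ± 0.0182 in tAM and 0.426% ± 0.000425 in HostAM (SD, n = 2 each). The texAM libraries had 0.422% and 0.457%, the exAM libraries 0.495% and 0.465%, the tAM libraries 0.455% and 0.481%, and the HostAM libraries 0.427% and 0.426%. The exAM and tAM libraries overlapped, and both HostAM libraries lay below the exAM and tAM libraries. In absolute counts the order differed: the members summed to 38598 and 38328 in texAM, 32419 and 33038 in exAM, 37796 and 37196 in tAM, and 37968 and 36276 in HostAM. With 2 libraries a group no permutation test of these shares could pass 0.05.

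Cells in culture were first set against transplanted cells for which no culture is named. After TMM scaling, 8 of 83 tested members were called higher and 3 lower in exAM than in tAM (edgeR's quasi-likelihood test, Benjamini-Hochberg adjusted p under 0.05 over 14537 genes), 13.3% of the members against 44.7% of all tested genes. By direction, 21.5% of all genes were called higher and 23.2% lower. The members' median log2 change was 0.28, against -0.09 over all genes, and 75 of the 83 values were positive. Of the members called higher, 6 were of the large and 2 of the small subunit, and they included Rpl15 (log2 change 0.61), Rpl23 (0.49), Rpl31 (0.46), Rps3a1 (0.43), Rps15 (0.40), Rpl4 (0.40) and Rpl32 (0.39). Rpl3l, Rps4l and Rpl21 were called lower.

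The raw counts of the 8 did not share the scaled direction. In Rpl15 and Rpl23 both exAM libraries lay above both tAM libraries, in Rpl4 and Rpl32 below, and in the others they overlapped. Rpl31, a large subunit protein, had 334 and 342 counts in exAM and 338 and 326 in tAM, or 55.04 ± 3.16 CPM in exAM against 40.1 ± 1.16 CPM in tAM (SD, 2 libraries each; adjusted p = 0.0497). Its raw counts overlapped between the groups. Rpl15, another large subunit protein, had 239 and 230 counts in exAM and 216 and 200 in tAM, which did not overlap, and 38.3 ± 3.87 CPM in exAM against 25.1 ± 0.00476 CPM in tAM (adjusted p = 0.0417). The exAM level of Rpl4 was 341 ± 26.7 CPM, and its tAM level 258 ± 14.7 CPM (adjusted p = 0.00694), from the raw counts given above. Its raw counts were thus lower in both exAM libraries and its scaled level higher.

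In raw counts, 69 of the 77 members above 100 counts had a lower mean in exAM than in tAM and 8 a higher one. In 57 both exAM libraries lay below both tAM libraries, and in 2 above. The same held for 58% of all 9126 genes below and 19.7% above. The median raw ratio of exAM to tAM was 0.904 for the members, 0.773 for all genes and 0.852 for the library totals, so the members were nearer to equal counts than the totals were.

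Whether members passed the test against no change depended on the scaling. A change of scaling moves the log2 changes of all genes nearly alike, so it cannot test the members' distance from the other genes. The members' median minus that of all genes was therefore nearly fixed by construction. It was 0.37 under TMM, 0.37 under library size alone and 0.36 under factors from the members. With library size alone no member was called higher and 5 lower (15.5% of all genes were called higher and 29.4% lower), and the members' median was 0.08 against -0.29 over all genes. Factors computed from the members themselves, an alternative chosen after the data were seen, set the members' median to about 0 by construction, so they show only which members stood apart from the rest of the set. Under them none was higher and 5 lower (12.3% and 30.6% of all genes), and the median of all genes was -0.37. DESeq2's Wald test called 6 higher and 3 lower (22% and 23.1% of all genes). Leaving out a library, with the lone remaining sample assumed to vary like the other groups, gave 1 higher and 2 lower without exAM replicate 1, 3 and 1 without exAM replicate 2, 0 and 2 without tAM replicate 1, and 1 and 3 without tAM replicate 2. Of all genes, 29.9%, 30.1%, 32% and 30.5% were then called, in the same order.

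Against resident cells, 27 members were called higher and 2 lower in exAM than in HostAM, 34.9% of the members beside 44.1% of all genes (20.9% higher and 23.3% lower). These 27 were 15 of the large subunit, 11 of the small subunit and Rplp0 of the P stalk. The members' median log2 change was 0.38, and that of all genes -0.08. The largest included Rpl22l1 (0.76 ± 0.25 SE), a paralogue of Rpl22, Rpl15 (0.74 ± 0.22), Rpl39 (0.73 ± 0.20), a small protein of the exit tunnel, and Rpl38 (0.62 ± 0.19), which in mice is needed for the translation of Hox mRNAs. Rpl39 had 249 and 257 counts in exAM and 211 and 230 in HostAM, and Rpl22l1 had 147 and 162 in exAM and 121 and 142 in HostAM. For both genes the exAM counts were above the HostAM counts even unscaled.

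Across the 77 members the raw counts ran the other way: 64 had a lower mean in exAM and 12 a higher one, with both exAM libraries below both HostAM libraries in 56 (63.1% of all genes) and above in 7 (15.4% of all genes). With library size alone the calls were 4 higher and 3 lower (15.6% and 28.8% of all genes), and with factors from the members 0 higher and 4 lower (9.45% and 34.6%). DESeq2's Wald test called 25 higher and 2 lower (21.6% and 22.8% of all genes). Without exAM replicate 1 the calls were 3 higher and 2 lower, without exAM replicate 2 13 and 1, without HostAM replicate 1 4 and 1, and without HostAM replicate 2 14 and 2. Of all genes, 29.2%, 29.7%, 33.7% and 37.5% were then called, in the same order. The members' median minus that of all genes was 0.47 under TMM, 0.46 under library size alone and 0.46 under factors from the members. These values, too, are nearly the same by construction. Both comparisons use the same exAM libraries.

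The cultured cells were then compared with the same kind of cells after 4 months in a lung. In texAM 25 of 83 members were called lower and 1 higher than in exAM, 31.3% of the members beside 43.7% of all genes (23.2% higher and 20.5% lower). The lower ones were 12 of the large subunit, 11 of the small subunit, and Rplp0 and Rplp1 of the stalk. The members' median was -0.39, against 0.11 over all genes. The largest decreases included those of Rpl15 (-0.77), Rpl38 (-0.63), Rps3a1 (-0.56), Rpl4 (-0.55), Rpl26 (-0.54), Rps15, Rpl31 and Rpl32 (-0.53 each) and Rps25 (-0.52). Rpl3l rose, with a log2 change of 2.39.

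Here too the raw counts had the opposite order. Of the 77 members, 73 had a higher mean raw count in texAM than in exAM and 4 a lower one, and in 66 both texAM libraries exceeded both exAM libraries, while in 2 they lay below (67.4% and 13.3% of all genes). The median raw ratio of texAM to exAM was 1.12 for the members, 1.28 for the totals and 1.44 for all genes. Under library size alone 2 members were called higher and 1 lower (30% and 14% of all genes), with a members' median of -0.17 against 0.33 over all genes. Under factors from the members 5 were higher and none lower (34.9% and 9.2% of all genes). DESeq2's Wald test called 1 higher and 25 lower (22.4% and 21.5% of all genes). Without exAM replicate 1, and also without texAM replicate 1, 1 member was higher and 1 lower, without exAM replicate 2 1 and 16, and without texAM replicate 2 1 and 7. Of all genes, 28.6% were called without exAM replicate 1, 29.5% without texAM replicate 1, 30% without exAM replicate 2 and 28.6% without texAM replicate 2. The members' median minus that of all genes was -0.51 under TMM, -0.51 under library size alone and -0.50 under factors from the members, again nearly fixed by construction.

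**Figure D3:**
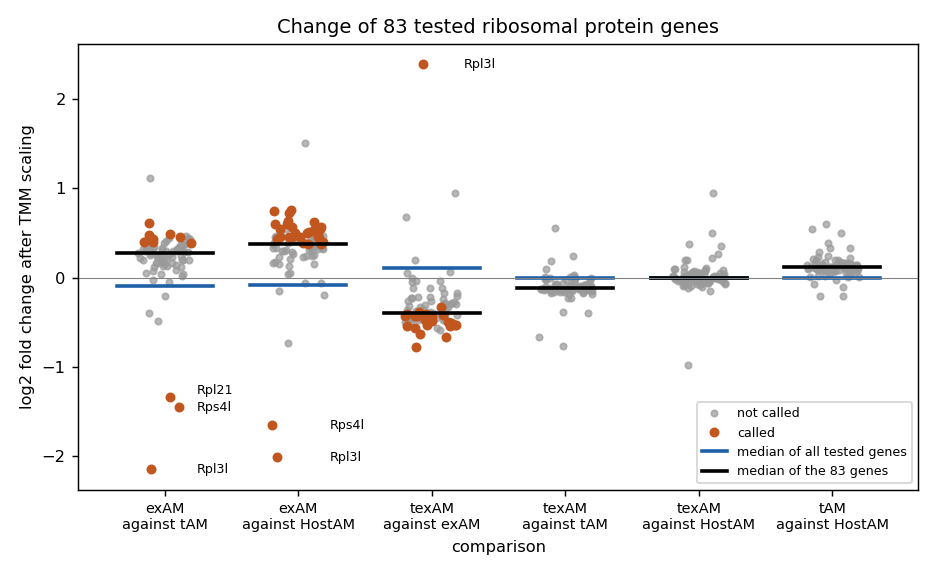
Log2 fold change after TMM scaling (vertical axis) of each of the 83 tested members (points, orange where called) in 6 comparisons (horizontal axis), with the members' median in black and that of all tested genes in blue. The members' medians lie at 0.28, 0.38 and -0.39 in the comparisons with exAM and between -0.12 and 0.12 in the others.

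**Figure D4:**
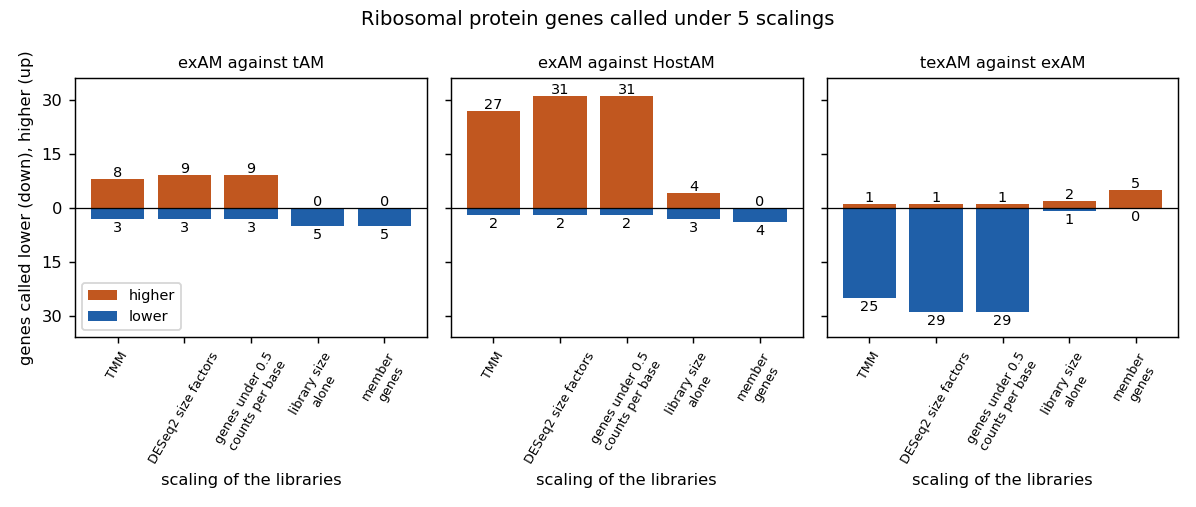
Number of members called higher (up) and lower (down) in the comparisons that involve exAM, under 5 ways of scaling the libraries (horizontal axis). The calls on the side of higher exAM levels are 8, 27 and 25 under TMM and 0, 4 and 1 under library size alone; factors from the member genes centre the members, which removes such calls by construction.

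Densely counted genes that are not members had medians of the same sign as the members. In texAM against exAM, other genes with 1 to 2 counts per base of the longest transcript had a median log2 change of -0.43 (222 genes), against -0.47 in the 4 members of that class. From 0.5 to 1 counts per base the medians were -0.24 for 823 other genes and -0.39 for 16 members. Under 0.5 counts per base they parted, with 0.16 for 12897 other genes and -0.39 for 63 members. In exAM against tAM the medians were 0.31 for other genes and 0.34 for members in the densest class, 0.19 and 0.25 in the middle class, and -0.12 and 0.28 in the sparsest. These classes describe the genes and were not tested against each other. The sparsest class is wide, and members and other genes were not matched for density within it. Per base of the principal transcript 42 members, not 20, were over 0.5, so some of these 63 were densely counted by that measure. Among the members alone the scaled change had no clear relation to counts per base of the principal transcript (Spearman's rho -0.15 for exAM against tAM and 0.04 for texAM against exAM, across 77 genes that share the same libraries and are no independent replicates).

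The members were also split by features that the choice by name did not use. In texAM against exAM the 36 members with a pyrimidine run near the start had a median log2 change of -0.34, and 7 of them were called lower. The 24 tested members that matched RefSeq without such a run had a median of -0.41 with 11 lower and 1 higher. Members with more than 50% of windows shared (44 tested) had a median of -0.40 with 11 lower, and the other 39 a median of -0.39 with 14 lower and 1 higher. None of these splits was tested.

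A few members were lower in exAM in raw counts by more than the totals. The mean total of exAM was 0.804 times that of the lung libraries, and 14 of the 77 members had a lower ratio than this. Among all 9126 genes with a mean above 100 counts a ratio below that of the totals was common. Their median ratio was 0.773 for exAM to tAM (totals 0.852) and 0.717 for exAM to HostAM (totals 0.784). The lowest ratio among the 77 members was that of Rps4l, annotated as a transcribed processed pseudogene and named after the small subunit protein S4 (chr6:148354656-148355598, GRCm38). Rps4l had 139 and 123 counts in texAM, 34 and 77 in exAM, 211 and 193 in tAM, and 268 and 231 in HostAM. No groups overlapped, and the order from low to high was exAM, texAM, tAM and HostAM. The exAM level was 8.86 ± 4.28 CPM, against 24.3 ± 0.206 CPM in tAM and 28.1 ± 2.09 CPM in HostAM, with log2 changes of -1.45 ± 0.33 SE (adjusted p = 0.00545) and -1.66 ± 0.33 SE (adjusted p = 0.00264). These 2 calls held in all 13 alternatives run for each, with adjusted p-values up to 0.0434 and 0.0209. The texAM level was 14.3 ± 0.341 CPM. Its log2 change was not called against exAM (0.68 ± 0.33, adjusted p = 0.122), against tAM (-0.77 ± 0.32, adjusted p = 0.615) or against HostAM (-0.97 ± 0.32, adjusted p = 0.226). Neighbours in the order of levels, exAM and texAM, texAM and tAM, and tAM and HostAM (-0.21 ± 0.31, adjusted p = 0.887), thus did not pass the test.

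Rps4x, the X-linked gene for S4, had flatter counts. It had 539 and 545 counts in texAM, 506 and 498 in exAM, 560 and 539 in tAM, and 536 and 521 in HostAM. Its log2 change in exAM was 0.30 ± 0.15 SE against tAM (adjusted p = 0.116) and 0.46 ± 0.15 SE against HostAM (adjusted p = 0.0277). The transcripts are 79.9% identical over 793 aligned positions, and 133 of the 740 windows of Rps4l occur elsewhere. A 60-base stretch, which differs more than the transcripts do as a whole, is shown as an example. The 19 positions that differ within it are in capitals (GENCODE M21 transcripts, GRCm38).
Rps4l (chr6:148355165-148355224, plus strand): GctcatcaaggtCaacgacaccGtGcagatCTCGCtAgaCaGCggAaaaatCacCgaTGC
Rps4x (chrX:102186413-102186472, minus strand): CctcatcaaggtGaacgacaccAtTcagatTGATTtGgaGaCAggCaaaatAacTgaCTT

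Rpl3l, the paralogue of Rpl3 known from heart and skeletal muscle (chr17:24727820-24736143), was another member with a large difference. It had 76 and 60 counts in texAM, 11 and 6 in exAM, 47 and 56 in tAM, and 62 and 39 in HostAM. Both exAM libraries lay below all 6 lung libraries, and the HostAM counts overlapped those of texAM and tAM, while both texAM libraries lay above both tAM libraries. In CPM this was 7.39 ± 0.771 in texAM, 1.41 ± 0.679 in exAM, 6.24 ± 1.11 in tAM and 5.66 ± 1.66 in HostAM. The log2 changes were 2.39 ± 0.56 SE in texAM against exAM (adjusted p = 0.00635), -2.15 ± 0.56 in exAM against tAM (adjusted p = 0.0109) and -2.01 ± 0.56 in exAM against HostAM (adjusted p = 0.0152). Without exAM replicate 2 all 3 calls were lost (adjusted p = 0.0649, 0.0958 and 0.123, in the same order), and without HostAM replicate 1 the last was (adjusted p = 0.0649). Rpl3 itself, which sits near the peptidyl transferase centre, had 633 and 608 counts in texAM, 568 and 562 in exAM, 609 and 608 in tAM, and 651 and 609 in HostAM.

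Rpl21, of the large subunit (chr5:146832890-146837032), had 96 and 123 counts in texAM, 44 and 32 in exAM, 181 and 83 in tAM, and 78 and 105 in HostAM. The exAM libraries were the lowest and tAM replicate 1 the highest. Its log2 change of -1.33 ± 0.45 SE in exAM against tAM was called (adjusted p = 0.0330). The call ended without exAM replicate 1 (adjusted p = 0.0614), exAM replicate 2 (0.195) or tAM replicate 1 (0.283), and the adjusted p ran from 0.00915 to 0.283 over 13 alternatives. Against HostAM (-0.73 ± 0.45, adjusted p = 0.207) it was not called. With 55.5% of its windows shared, its count is among those that could be split.

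**Figure D5:**
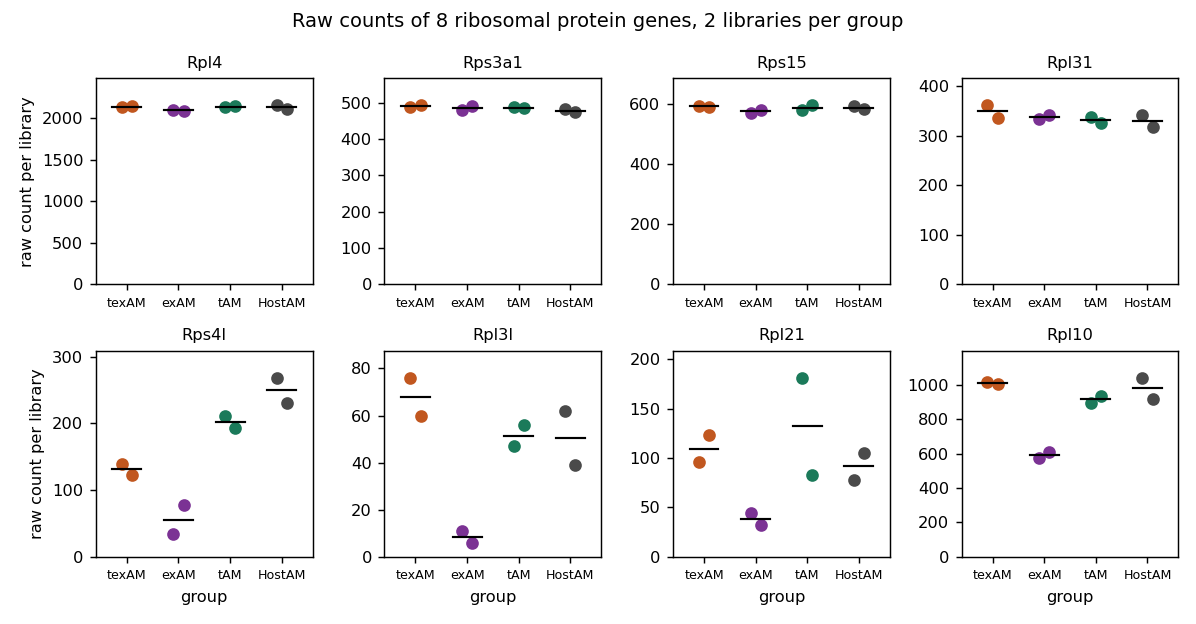
Raw counts per library (vertical axes, from 0) of 8 members in the 4 groups (horizontal axes), with points for the 2 libraries and a bar for their mean. The upper 4 genes stay level over all groups, while Rps4l, Rpl3l, Rpl21 and Rpl10 are lowest in both exAM libraries.

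Rpl10 and Rps9, named here after their values were seen, were densely counted and yet lower in exAM in raw counts. Rpl10, which sits near the peptidyl transferase centre and matures late in assembly (chrX:74270812-74273135), had 1016 and 1007 counts in texAM, 573 and 608 in exAM, 896 and 936 in tAM, and 1040 and 919 in HostAM. Rps9, of the small subunit, had 1025 and 1024 counts in texAM, 706 and 709 in exAM, 968 and 969 in tAM, and 1005 and 988 in HostAM. For both genes the exAM libraries lay far below the lung libraries, whose values were close together. After TMM scaling neither was called: the log2 change in exAM against tAM was -0.20 ± 0.13 SE for Rpl10 (adjusted p = 0.214) and -0.02 ± 0.12 SE for Rps9 (adjusted p = 0.904). Relative to the other members, that is under factors from the members, Rpl10 was lower in exAM than in tAM (-0.48, adjusted p = 0.0133) and HostAM (-0.59, adjusted p = 0.00469), and Rps9 was lower than in HostAM (-0.36, adjusted p = 0.0330). Of the windows of Rpl10, 92.1% occur elsewhere.

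Rpl7l1, a paralogue symbol, had 467 and 484 counts in texAM, 306 and 334 in exAM, 524 and 603 in tAM, and 568 and 399 in HostAM. It was called lower in exAM against tAM only under library size alone and under factors from the members (-0.66, adjusted p = 0.0218). Among the remaining members the ratio of exAM to lung counts was 0.661 for Rpl35a, 0.704 for Rps15a and 0.738 for Rpl9, again with both exAM libraries below all 6 lung libraries. This order held in 49 of the 77 members (53.1% of all genes), and the reverse order in 1 (10.4% of all genes).

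The paralogue members differed in how far they could be measured. Rps27l, a target of p53 in mammals, had 446 and 440 counts in texAM, 300 and 346 in exAM, 406 and 421 in tAM, and 407 and 387 in HostAM, and no log2 change of it passed the test (-0.12 to 0.23). Rpl39l had 6 and 54 counts in texAM, 33 and 13 in exAM, 49 and 40 in tAM, and 29 and 36 in HostAM, a spread within groups that left standard errors of 0.86 to 0.88 on its log2 changes. Rpl6l (4 to 11 counts) and the pseudogene Rps3a3 (11 to 26 counts) passed the filter on low counts without a call. Rps3a2 (0 to 2 counts) and Rps12l1 (0 to 2 counts) did not pass it. Rpl10l, known from testis, had 0 counts in every library.

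Between the groups taken from the lung no member was called. In texAM against tAM, 0 of 83 members passed edgeR's test and 1 had an unadjusted p under 0.05, where 0.00688% of all genes were called, all of them higher (0% lower). DESeq2 called 0 members, against 0.453% of all genes higher and 0.0803% lower. The members' median was -0.12, with 75 negative values, and their range ran from -0.77 (Rps4l) to 0.56 (Rpl6l). In texAM against HostAM edgeR and DESeq2 also called 0, with 2 members under an unadjusted p of 0.05. Of all genes 0.33% were called by edgeR (0.248% higher and 0.0825% lower), and 1.92% higher and 0.779% lower by DESeq2. The median was 0.00. In tAM against HostAM edgeR and DESeq2 called 0 and 1 member was under 0.05. Of all genes 0.0413% were called by edgeR (0.0206% in each direction), and 0.533% higher and 0.855% lower by DESeq2. The median was 0.12 and 78 values were positive. By edgeR the smallest adjusted p of any member was 0.226, for Rps4l in texAM against HostAM, and in the other 2 pairs 0.615 (Rps4l) and 0.477 (Rpl27a). By DESeq2 the smallest was 0.139 in texAM against HostAM. A p above the threshold does not show equal levels.

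Subunit genes outside the naming rule were measured next to the members. Fau, which encodes a ubiquitin-like protein fused to a small subunit protein, had 413 and 410 counts in texAM, 336 and 339 in exAM, 408 and 411 in tAM, and 419 and 397 in HostAM. Rack1, a signalling scaffold on the small subunit, had 2009 and 1935 counts in texAM, 1359 and 1347 in exAM, 2001 and 1834 in tAM, and 1947 and 1953 in HostAM. Both exAM libraries were below the others for each gene. Rpl36al had 222 and 219 counts in exAM, against 239 to 276 in the lung libraries. None of the 5 tested genes of this list was called in any comparison. Their median log2 change was 0.15 in exAM against tAM and -0.29 in texAM against exAM.

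The factors that work with the ribosome showed larger single changes. Among 12 tested translation elongation factors, 8 were called higher and 2 lower in exAM than in tAM (83.3%, beside 44.7% of all genes), and the median log2 change was 0.40. Against HostAM 9 were called higher and 2 lower (91.7%, beside 44.1%; median 0.51). In texAM against exAM 1 was called higher and 8 lower (75%, beside 43.7%; median -0.49). Per base of the longest transcript, 5 of the 12 had over 0.5 counts and 2 over 1. Of the other genes with 1 to 2 counts per base, 68.9% were called in exAM against tAM. The part of counts per base and of the scaling in the calls of this list was not tested. Eef1a2, a form of elongation factor 1A known from neurons and muscle, had 168 and 74 counts in exAM and 0 in every lung library, so that exAM was at least 111-fold higher than tAM, taking 3 counts over the group as the floor. At that bound the list's median was the same. Eif5a2 had 197 and 188 counts in texAM, 47 and 37 in exAM, 194 and 93 in tAM, and 192 and 197 in HostAM. It was lower in exAM than in HostAM (-1.67, adjusted p = 0.00427) and rose in texAM against exAM (1.61, adjusted p = 0.00523).

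Among 38 translation initiation factors 16 were called higher and none lower in exAM than in tAM (42.1%, near the 44.7% of all genes), with 31 positive and 7 negative values and a median of 0.24. Against HostAM 17 were called higher and none lower (44.7%, beside 44.1% of all genes; median 0.31). In texAM against exAM none was called higher and 12 lower (31.6%, beside 43.7%; median -0.27). Per base of the longest transcript, 10 of the 38 had over 0.5 counts and 1 over 1, and the part of this in the calls was not tested. Eif2s1, a subunit of the factor that brings the initiator tRNA, had 836 and 621 counts in texAM, 828 and 870 in exAM, 532 and 488 in tAM, and 537 and 594 in HostAM. Its log2 change was 1.17 ± 0.15 SE in exAM against tAM (adjusted p = 0.000165) and -0.80 ± 0.15 in texAM against exAM (adjusted p = 0.00165). This gene had 0.195 counts per base, and its raw counts were higher in exAM than in tAM and HostAM. Eif4e, which binds the mRNA cap, had 318 and 311 counts in exAM and 153 and 167 in HostAM (1.51, adjusted p = 0.000232).

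Genes for ribosome production went both ways. Of 22 genes of ribosomal RNA synthesis 3 were higher and 4 lower in exAM than in tAM (median -0.17). Brf1, a subunit of the initiation factor of RNA polymerase III, had 122 and 163 counts in exAM and 425 and 397 in tAM (-1.1, adjusted p = 0.0011), while Gtf3c3, of another polymerase III factor, had 412 and 450 in exAM and 331 and 215 in tAM (1.1, adjusted p = 0.00174). Of 87 ribosome assembly factors 12 were higher and 9 lower (median -0.02). Pno1, of small subunit assembly, was higher (1.08, adjusted p = 0.00269), and Rrp15 was lower, with 66 and 70 counts in exAM and 235 and 264 in tAM (-1.45, adjusted p = 0.00264). In texAM against exAM 5 were higher and 3 lower in the list of RNA synthesis (median 0.20), and 12 higher and 10 lower among the assembly factors (median 0.14). All of these shares, 24.1% to 36.4% of a list, were below the share of all genes called in the same comparison.

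Of 36 tested genes of mTORC1 and of the control of pyrimidine-tract mRNAs, 11 were higher and 6 lower in exAM than in tAM (47.2%, beside 44.7% of all genes; median 0.24). Against HostAM 14 were higher and 7 lower in exAM (58.3%, beside 44.1%; median 0.16). In texAM against exAM 6 were higher and 15 lower (58.3%, beside 43.7%; median -0.25). Rragd, a GTPase that brings mTORC1 to lysosomes, had 66 and 48 counts in texAM, 395 and 310 in exAM, 13 and 30 in tAM, and 31 and 27 in HostAM. Its log2 change was 4.46 ± 0.43 SE in exAM against tAM (adjusted p = 2.37e-05) and -3.22 ± 0.39 in texAM against exAM (adjusted p = 0.000122). Rps6kb2, a kinase of ribosomal protein S6, had 492 and 541 counts in texAM, 133 and 145 in exAM, 552 and 481 in tAM, and 549 and 497 in HostAM. It was lower in exAM than in tAM (-1.46, adjusted p = 0.0001) and rose in texAM against exAM (1.32, adjusted p = 0.000199). Pdcd4, an inhibitor of the helicase Eif4a1, was lower in exAM than in tAM (-1.28, adjusted p = 0.00682).

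The 77 mitochondrial ribosomal protein genes, which serve the separate ribosome of the mitochondrion, served as a set of similar function with sparser counts. Per base of the longest transcript 0 exceeded 1 count and 4 exceeded 0.5, against 4 and 20 of the members. In exAM against tAM 7 were higher and 8 lower (19.5%, beside 44.7% of all genes; median 0.06). Against HostAM 10 were higher and 2 lower (15.6%, beside 44.1%; median 0.12). In texAM against exAM 5 were higher and 8 lower (16.9%, beside 43.7%; median -0.10). Mrpl35 was among the higher ones, with 297 and 376 counts in exAM and 174 and 226 in tAM (1.17, adjusted p = 0.00205), and Mrps12 among the lower, with 75 and 105 counts in exAM and 262 and 224 in tAM (-1.01, adjusted p = 0.0133). In the 3 pairs of lung groups none of these 6 lists, from the elongation factors to the mitochondrial proteins, had a call, and their medians lay between -0.07 and 0.13.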

How the data were processed

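Bulk RNA was extracted from pools of 3 mice, amplified from 2 ng with the Ovation RNA-seq system V2 and sequenced, per the labels' protocols. The authors deposited raw counts per gene; the submitters' processing notes name Bowtie, HTSeq 0.6.1, R 3.3 and mm10/GRCm38, with no settings. Read length, strand setting and handling of duplicate reads are not given in the sources used here. The 8 libraries held 6546272 to 9154128 counts.

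All 37310 genes entered edgeR 4.0.16 (R 4.3.3): filterByExpr with a minimum of 10 counts left 14537 genes and 83 members, TMM scaled the libraries, and the quasi-likelihood test was run with 1 term per group over all 8 libraries (4 residual degrees of freedom), with p-values adjusted by Benjamini-Hochberg over all tested genes. The steps were also run on simulated data, with few genes changed, equally in both directions, and no limit on counts per base. That setting differs from these data, so it could not test the calls of densely counted genes or the scaling. CPM use TMM library sizes. Raw counts were also compared unscaled. Lengths, shared windows and coordinates come from GENCODE M21 (GRCm38), which held 32620 (87.4%) of the gene IDs, and start sites from RefSeq.

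Named are the called members of largest change (10 per direction in exAM against tAM and texAM against exAM, 5 in other pairs), members of extreme counts per base, paralogues, untested members and, in other lists, genes from the largest called changes. The members and lists were chosen with earlier results of these data known. Alternatives were other scalings, filters, DESeq2 1.42.0, a replicate block, only the libraries compared, and each library left out. A few genes that this choice names are not reported here.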

Additional observations from a re-analysis of the deposited data

How the results depend on the processing

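In the 3 comparisons with exAM the direction of the members' median was kept under DESeq2 size factors, factors from sparsely counted genes, both other filters, DESeq2's Wald test, the replicate block and each left-out library. In exAM against tAM, 11 members were called. The count was 5 with library size alone, with no filter, with the replicate block and with factors from the members, 7 with a minimum of 50 counts or only the 4 libraries compared, and 2 to 4 with a library left out. Of all genes 44.7% were called, and 44.9%, 31%, 41.8% and 42.9% in the first 4 of these settings, 52.9% and 50.5% in the next 2, and 29.9% to 32% with a library left out. The median was 0.0787 with library size alone and -0.0011 with factors from the members. In exAM against HostAM, 29 were called, against 7 with library size alone, 13 with no filter, 4 with factors from the members, 15 with only the 4 libraries and 5 to 16 with a library left out (all genes: 44.1%, against 44.5%, 31.2%, 44.1%, 43.8% and 29.2% to 37.5%). The median was 0.202 with library size alone, -0.0120 with factors from the members, and 0.35 to 0.47 with a library left out. In texAM against exAM, 26 were called, against 3 with library size alone, 12 with no filter, 16 with the replicate block, 5 with factors from the members and 2 to 17 with a library left out (all genes: 43.7%, against 44.1%, 30.9%, 40.8%, 44.1% and 28.6% to 30%). The median was -0.175 with library size alone, 0.0024 with factors from the members, and -0.49 to -0.32 with a library left out. Factors from the members set the members' median to about 0 by construction. They gave -0.0082 in texAM against tAM and 0.0023 in tAM against HostAM, and members near the median changed sign with them: Rpl3 (-0.0198) and Rplp0 (-0.0041) in exAM against HostAM, and Rpl8 (0.0600) and Rps3 (0.0053) in texAM against exAM. For 61 calls of single members the alternatives gave 793 values, of which 412 passed the test again, 377 kept the direction without passing and 4 turned the sign. The cause was not tested.

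With sparsely counted genes and the members as the denominator, the summed share was 0.650% in texAM, 0.720% in exAM, 0.705% in tAM and 0.636% in HostAM, and without paralogues 0.450% in tAM and 0.411% in HostAM. The replicate numbers did not pair the libraries (correlations of -0.0691 to 0.00923, 2 pairs each), so the replicate block shares only a number. With 2 pools a group, calls of these genes against no change depend on the scaling. The members' median minus that of all genes differed by at most 0.01 between the scalings, by construction, since a scaling moves all genes nearly alike. With the filter and the libraries used it did move. It ran from 0.26 (without tAM replicate 1) to 0.44 (without exAM replicate 2) in exAM against tAM. The range was 0.39 to 0.57 in exAM against HostAM and -0.59 to -0.39 in texAM against exAM.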
